A study of Caenorhabditis elegans with 8 samples.

Results

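The libraries compared are the single-end library of endo-cleaved DNA of 90 to 140 nt, shorter than the DNA of a nucleosome core, and the library of mononucleosome core DNA made with micrococcal nuclease (MNase). They are 2 of the 8 libraries of the series and were taken by their labels, 1 library each. Both come from purified oocytes of Caenorhabditis elegans fer-1(b232) worms, a temperature-sensitive mutant grown at the restrictive temperature, so every group carries this allele and no wild-type oocytes are among them. Sperm of this mutant are defective, and its oocytes are ovulated unfertilized and go on replicating their DNA. The endo-cleaved DNA came from direct lysis of frozen, ground oocytes with no nuclease added, and was cut by the oocytes' own nuclease. The core DNA came from a crude lysate of ground oocytes treated with MNase, and the list's own heading describes the digestion as heavy. The paper reports that a majority of such oocyte DNA was in short fragments without added nuclease. It describes the MNase pieces as made from the longer chromatin. Ends cut by the oocytes' own nuclease can still be among the MNase tags, and their share was not measured. Both kinds of DNA were blunted, ligated to linkers, selected by size, amplified and sequenced from 1 end. The 40-90 nt and 140-240 nt single-end libraries and the 80-230 nt paired-end library of endo-cleaved DNA from the same strain are set beside them where a difference is stated.

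In a nucleosome core the DNA winds around an octamer of histones, and the DNA between cores is the linker. MNase cuts linker DNA and trims inward until the core stops it, so heavy digestion leaves pieces with both ends near the core edges. A nuclease that cuts DNA on a surface reaches the face turned outward once in each turn of the helix, which gives a ladder of pieces that differ by whole turns. A piece shorter than a core can have 1 end at a core edge and the other within the core, both ends within it, or no relation to it at all. The comparison asks which of these describes the 90-140 nt pieces.

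The deposited lists hold whole-number tag counts per position and strand, and a tag stands for the 5′ end of a read of which 25 nt were mapped. There were 28451497 tags at 21852799 positions in the 90-140 nt library and 7892011 at 6852300 positions in the MNase library. In the 90-140 nt library 78.0% of the occupied positions held a single tag and the highest position held 979. In the MNase library 88.1% held a single tag and the highest held 178. Tags at 1 position can be PCR copies, so the main values of each comparison were also computed with every position and strand counted once. The other values, among them those of the neighboring libraries, the core classes, the runs and the shares by chromosome, rest on every tag. In the 140-240 nt library 60.1% of the tags repeated a position already counted, against 23.2% in the 90-140 nt and 13.2% in the MNase library. Each condition is 1 library, so differences between preparations of oocytes could not be measured and libraries were not tested against each other. The range in parentheses after a value is the lowest and the highest of the 6 chromosomes, which are not replicates.

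The 2 libraries had their highest pair numbers at distances far apart, and their labels give fragment sizes of 90-140 bp and, for MNase, 150 bp. The difference between these distances cannot be told apart from that selection by size. A piece was read from the distance between a 5′ end on the plus strand and a 5′ end on the minus strand downstream of it, and the pairs at each distance were counted, weighted by the product of the tag counts. These pairs need not come from 1 molecule. The pair number at a distance was divided by the mean at 400 to 500 nt, a range beyond a single core, to give a pair level. Over 60 to 200 nt the pair number in the 90-140 nt library was highest at 100 nt, with 3369594 pairs and a pair level of 1.53 (1.47 to 1.57). It was at 100 nt on all 6 chromosomes. Over the same distances, which leave out part of the size range of each, the highest pair number lay at 69 nt in the 40-90 nt library and at 152 nt in the 140-240 nt library. The MNase library had its highest pair number 1 nt below the latter and at 148 nt on the lowest chromosome, with 337755 pairs and a pair level of 1.84 (1.81 to 1.86).

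**Figure D1:**
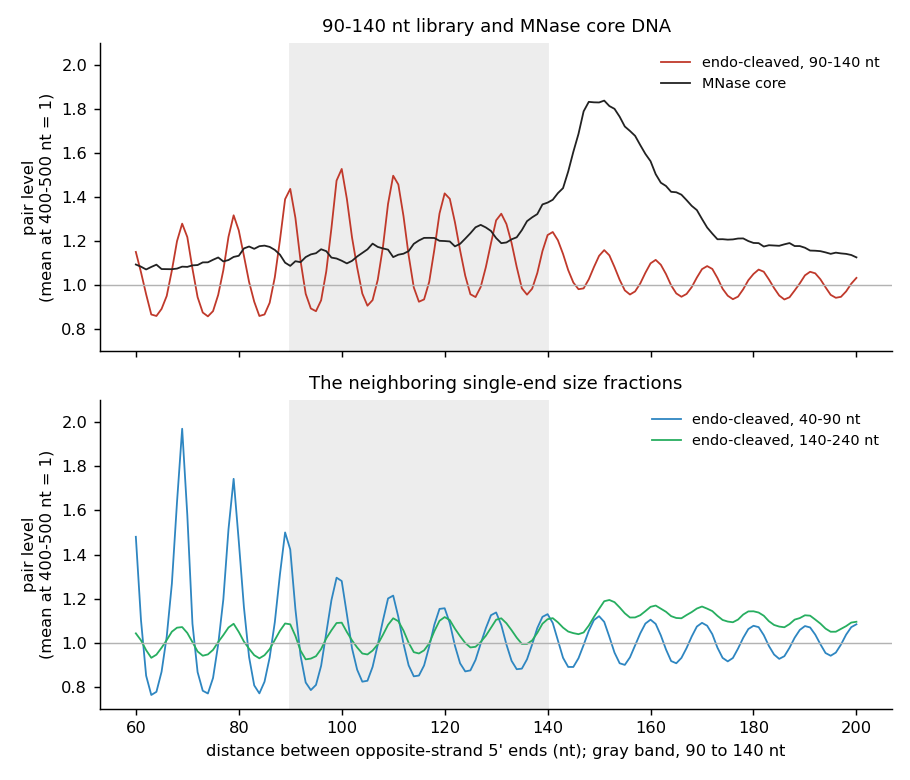
Pair level (y axis, mean at 400 to 500 nt set to 1) against the distance in nt between opposite-strand 5′ ends (x axis) in 4 single-end libraries, with every tag counted; lines join single distances and the gray band covers 90 to 140 nt. The 90-140 nt library swings from crest to trough with its highest crest at 100 nt, and the MNase library has a single broad maximum near core length, with a level of 1.84.

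Pairs of 90-140 nt ends had no separate maximum at core length. Its mean pair level was 1.04 (1.03 to 1.05) below 90 nt, 1.15 (1.12 to 1.18) from 90 to 140 nt, 1.08 (1.07 to 1.11) over the next 15 nt, which hold the length of a core, and 1.01 (0.999 to 1.02) from there to 200 nt. The MNase library had 1.11 (1.09 to 1.13), 1.19 (1.16 to 1.23), 1.68 (1.66 to 1.72) and 1.28 (1.25 to 1.31) over the same ranges. The size cut of the 90-140 nt library sets which lengths can be recovered, and its lower level beyond 140 nt cannot be told apart from that selection. The same holds for the high level of the MNase library over these 15 nt, since its label gives 150 bp. On every chromosome the level over the 15 nt beyond 140 nt was higher in the MNase library, where the lowest chromosome had 1.66, than in the 90-140 nt library, where the highest had 1.11. From 90 to 140 nt the chromosome ranges of the libraries overlapped, so the MNase library also held pairs at these distances above the level at 400 to 500 nt. In the 140-240 nt library the mean pair level was 1.03 (1.02 to 1.03) from 90 to 140 nt and 1.11 (1.10 to 1.13) over the 15 nt beyond.

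The pair numbers of the 90-140 nt library rose to regular crests, both within the range of its sizes and to either side of it. Crests, that is distances with more pairs than any other within 4 nt, lay at 69, 79, 90, 100, 110, 120 and 131 nt, and 6 more followed in like steps up to 191 nt. The crest at 100 nt held 1.71 times the mean of its neighboring troughs, the crest at 120 nt 1.51 times, the crest at 161 nt 1.17 times and the crest at 191 nt 1.13 times. A sinusoid fitted near the helical repeat of DNA over a quadratic baseline had a period of 10.21 nt (10.19 to 10.22) and an amplitude of 15.52% of the mean (14.54 to 16.4%). Fits at periods near 7 and near 14 nt gave at most 1.45%. Chromosome X had the lowest amplitude, 14.54%, and chromosome III the highest, 16.4%.

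In the MNase library the same fit gave 10.66 nt (10.62 to 10.70) and an amplitude of 1.98% (1.77 to 2.19%), against at most 0.831% at the other periods. Its crests of 85, 96, 106, 117 and 127 nt held from 1.05 to 1.08 times their neighboring troughs. Each of these lay from 3 to 5 nt short of the next crest of the 90-140 nt library. In the fits, the crest nearest 110 nt lay at 110.1 nt in the 90-140 nt library and at 105.4 nt in the MNase library. With each position counted once these were 110.04 nt and 105.4 nt, and the amplitudes 11.3% and 1.61%. The amplitude was 19.6% (16.8 to 21.8%) in the 40-90 nt library and 5.08% (4.57 to 5.72%) in the 140-240 nt library.

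Molecules sequenced from both ends gave a ladder of like sizes. The 80-230 nt paired-end library holds 15509078 fragments, of which 8709825 (56.2%) were 90 to 140 nt long. Within that range the fragment number had local maxima at 90, 99, 111, 120 and 132 nt, with 716598, 448390, 276955, 203211 and 103668 fragments. These lay within 1 nt of the single-end crests at 90, 100, 110, 120 and 131 nt.

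To place the ends on nucleosomes, cores were defined from the MNase library alone. A core, reaching 73 nt to either side of its center base, was taken where at least 4 MNase tags lay within 4 nt of its left edge on the plus strand and at least 4 within 4 nt of its right edge on the minus strand. Overlapping candidates were settled in favor of the stronger, and 1-kb windows over 5 times the median were left out. This gave 18648 cores, from 1849 on chromosome III to 5142 on chromosome V. The weaker edge held 4 tags in 12166 cores, 5 in 4104 and at least 6 in 2378. Repeated tags at 1 position count here, and with each position counted once the same rule gave only 1570 cores. The MNase library has the fewest tags of the 4 single-end libraries, and these are the cores that passed a threshold and not a map of all nucleosomes. Of them, 2982 lay in the 1-kb windows, described further on, where the MNase level was at least 2-fold above the 90-140 nt level. Those were 3.05% of the windows compared and held 1012 cores per 1000 windows. Windows within 2-fold held 179 per 1000. Windows with the 90-140 nt level at least 2-fold higher held 13 cores, 2.11 per 1000, so the core levels hardly cover them. Each 5′ end was placed by its distance into the core from the edge at which its strand enters, and levels are relative to positions 500 to 1000 nt outside the core.

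Ends of the 90-140 nt library were frequent at the edges of MNase-defined cores and in the part of the core that a piece of this size reaches from the opposite edge. Within 4 nt of the edge the level was 1.58 (1.49 to 1.64), from 82106 tags. A piece of 90 to 140 nt that starts at the opposite edge ends 7 to 57 nt into the core, here called the partner zone, and there the level was 1.39 (1.34 to 1.45), from 409472 tags. From 58 nt into the core up to the opposite edge, the far zone, the level was 1.02 (0.989 to 1.05). On all chromosomes the far zone was therefore below the edge and the partner zone. In the linker from 30 to 5 nt outside the edge the level was 1.37 (1.33 to 1.44). Ends that ran outward at the opposite edge had a level of 1.03 (1.01 to 1.07). The MNase library itself had 10.4 at the edge, where its tags defined the core, 1.40 (1.35 to 1.46) in the partner zone and 1.09 (1.07 to 1.10) in the far zone.

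The 3 size fractions of endo-cleaved DNA differed in where in the core they ended. The 40-90 nt library had a level of 1.14 (1.10 to 1.17) at the edge and 1.24 (1.19 to 1.28) in the partner zone. The 140-240 nt library had 1.62 (1.51 to 1.67) at the edge and 1.13 (1.09 to 1.17) in the partner zone. At the edge the 90-140 nt library was thus level with the 140-240 nt library, with overlapping chromosome ranges. As a mean over the partner zone, which its own size cut set, it was above both neighbors, with ranges that do not overlap. This did not hold throughout the zone. The 40-90 nt library was lower at 13, 24 and 34 nt (1.26, 1.28 and 1.48 against 1.71, 1.52 and 1.58). It was higher at 44 and 54 nt (1.58 and 1.35 against 1.53 and 1.33). In the far zone the 3 libraries lay between 0.998 and 1.03.

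**Figure D2:**
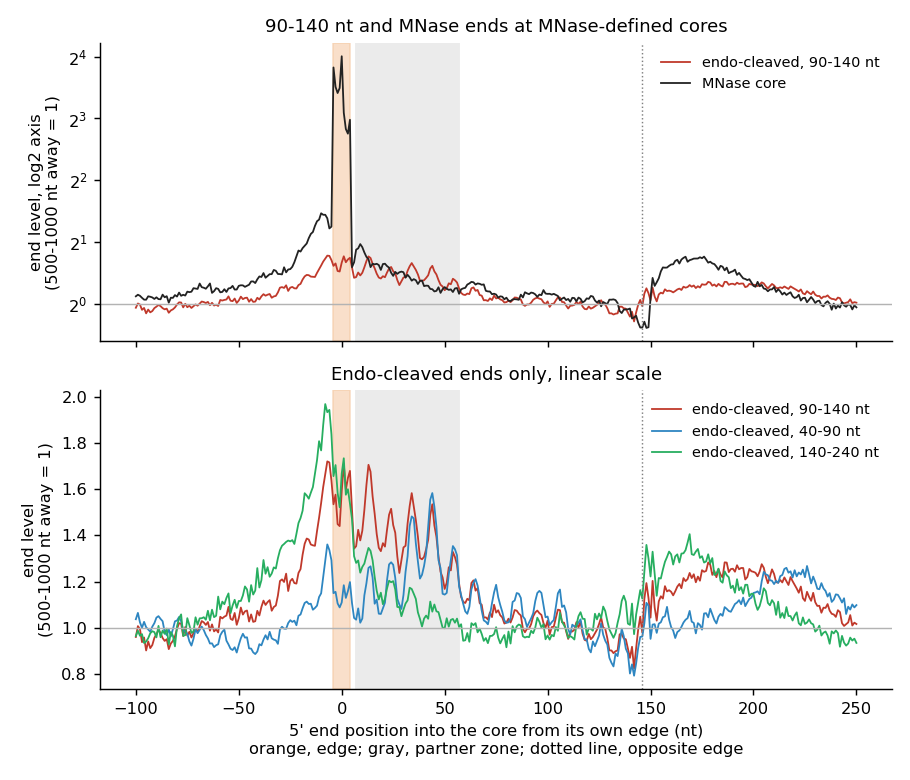
Level of 5′ ends (y axis, mean at 500 to 1000 nt outside the core set to 1; log2 axis above, linear below) against their distance in nt into the MNase-defined core from the edge where their strand enters (x axis), summed over 18648 cores and both strands. The orange band marks the edge, the gray band the partner zone from 7 to 57 nt and the dotted line the opposite edge; the 90-140 nt line stays above 1 through both bands, is as high just outside the edge (1.72 at -7 nt), lies between 0.823 and 1.21 from 60 nt up to the opposite edge and is higher again beyond it (1.28 at 186 nt), and the steep sides of the MNase line at the edge come from the search range that defined the cores.

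Single positions showed a ladder inside the cores. Crests of 90-140 nt ends lay 13, 24, 34, 44, 54 and 64 nt into the core, with levels of 1.71, 1.52, 1.58, 1.53, 1.33 and 1.21. Further crests at 74, 84, 95 and 105 nt had levels from 1.07 to 1.10. At the edge itself there were crests at -7 nt (1.72), just outside, and at 1 nt (1.71). Over 6 to 140 nt a sinusoid had a period of 10.24 nt and an amplitude of 6.54%, against at most 1.67% at the other periods. The amplitude was 8.81% in the 40-90 nt library and 4.22% in the 140-240 nt library. It was 2.43% in the MNase library, no larger than the 2.50% at its other periods.

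The cores differed among themselves in how many 90-140 nt ends they held. A core held a median of 4 such ends at its 2 edges together, with 90% of the cores between 1 and 9. In the partner zone the median was 21, between 11 and 35, and in the far zone, which is longer, 26, between 13 and 41. Both edges held at least 1 end in 12557 cores (67.3%), 1 edge did in 5406 (29.0%) and neither in 685 (3.67%). Such counts depend on depth, and a core without an end is one where none was found at this depth.

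Cores with more MNase tags had more 90-140 nt ends at their edges. The edge level was 1.54 (1.46 to 1.62) in cores with 4 MNase tags at the weaker edge, 1.62 (1.57 to 1.75) with 5, 1.71 (1.44 to 1.94) with 6 and 1.79 (1.67 to 2.01) with 7 or more, the last class being 911 cores. The lowest and the highest class did not overlap in their chromosome ranges, while neighboring classes did. The partner zone had 1.37 (1.31 to 1.42) in the lowest class and 1.50 (1.46 to 1.61) in the highest. The far zone had 1.03 (1.00 to 1.05) and 0.998 (0.940 to 1.10). In the 40-90 nt library the edge level was 1.14 (1.11 to 1.16) in the lowest class and 1.20 (1.05 to 1.40) in the highest, which overlap. In the 140-240 nt library it was 1.56 (1.50 to 1.66) and 1.99 (1.85 to 2.08), which do not, so the order was not particular to the 90-140 nt library.

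The 5 cores with the most MNase tags at their weaker edge, repeated tags included and at most 1 per chromosome, show this variation one by one. Their positions are in the numbering of the lists, whose genome build is not given in the sources used here. The core at 17242247 to 17242393 on chromosome V held 18 MNase tags at the left edge and 16 at the right. The 90-140 nt library had 7 and 4 ends at these edges, 16 in the partner zone and 33 in the far zone, while the 40-90 nt and 140-240 nt libraries had 0 ends at either edge. At 13778126 to 13778272 on chromosome III there were 13 and 14 MNase tags, with 5 and 5 ends of the 90-140 nt library at the edges, 57 in the partner zone and 128 in the far zone. This core was also dense in ends of the other fractions, with 76 of the 40-90 nt and 101 of the 140-240 nt library in the partner zone. At 1123262 to 1123408 on chromosome IV there were 13 and 14 MNase tags, with 4 and 4 ends of the 90-140 nt library at the edges, 34 in the partner zone and 17 in the far zone. The core at 12009613 to 12009759 on chromosome X, with 13 and 13 MNase tags, had 2 and 3 ends at the edges, 12 in the partner zone and 22 in the far zone. At 14811063 to 14811209 on chromosome I, with 12 and 14 MNase tags, the left edge held 0 ends of the 90-140 nt library and the right edge 4, with 40 in the partner zone and 37 in the far zone. The far zone is the longer one, and per nt it held fewer ends than the partner zone in the cores on IV and I and more in those on V, III and X, so single cores did not all follow the summed order. Ends at the strongest cores were thus few, from 4 to 11 a core in the 90-140 nt library, and the pattern above is one of sums over many cores.

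Pairs of ends were then read as pieces, to ask whether a piece has 1 end at a core edge and the other within the core. Pairs 90 to 140 nt apart were sorted by where their ends lay, and their number was divided by the mean at places shifted 600 to 900 nt to either side of the cores. In the 90-140 nt library pairs with 1 end at an edge and the other inside numbered 972464 and had a level of 1.99 (1.87 to 2.03). Pairs with both ends inside, away from either edge, numbered 1184500 and had a level of 1.87 (1.76 to 1.97). Pairs with 1 end outside and 1 inside numbered 6443150 and had a level of 1.13 (1.11 to 1.18). The first 2 kinds overlapped in their chromosome ranges, and both were above the remaining kind on every chromosome.

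Because the pairs are formed from separate tags, their level follows in part from the level of single ends. The product of the single-end levels at both ends, averaged over the same positions, gave 2.19 for pairs at an edge and 2.06 for pairs inside. The observed pair levels were 0.905 and 0.907 times these products. For edge pairs the ratio was also below 1 in the 40-90 nt (0.953), 140-240 nt (0.958) and MNase (0.782) libraries. The pairs at shifted places, by which levels were divided, already hold the general pair level at these distances. The ratio therefore cannot show whether ends go together at cores beyond the levels of single ends. In the 140-240 nt library, pairs of 90 to 140 nt had a level of 1.75 (1.59 to 1.84) at an edge and 1.37 (1.30 to 1.47) inside. In the 40-90 nt library they had 1.35 (1.29 to 1.38) and 1.33 (1.25 to 1.37).

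Fragments sequenced from both ends, in which the pair is 1 molecule, gave the same order with smaller levels. The sizes of the levels are not on 1 scale, since pairs count the product of tags at 2 ends and fragments do not. In the 80-230 nt paired-end library fragments of 90 to 140 nt with 1 end at an edge and the other inside numbered 48126 and had a level of 1.51 (1.46 to 1.57). Fragments with both ends inside numbered 72010 and had 1.41 (1.35 to 1.48), a chromosome range that overlaps that of the edge fragments. Fragments with 1 end outside numbered 385517 and had 1.11 (1.09 to 1.14). Of these kinds, fragments with 1 end outside were the most by number. This was also so at the shifted places, where their mean number was 348397. There the mean was 51236.6 with both ends inside and 31826.5 with 1 end at an edge. Levels at an edge differed with length, with 1.33 in the shortest class (90 to 99 nt) and 1.81 in the longest (130 to 139 nt), and with 1.50, 1.61 and 1.56 in the classes of 10 nt between them. The single-end pairs had 1.75, 1.95, 2.01, 2.05 and 2.17 in the same order of length. Edge fragments had local maxima of their number at 100, 111, 120 and 133 nt, and edge pairs of the 90-140 nt library at 100, 110, 121 and 131 nt.

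**Figure D3:**
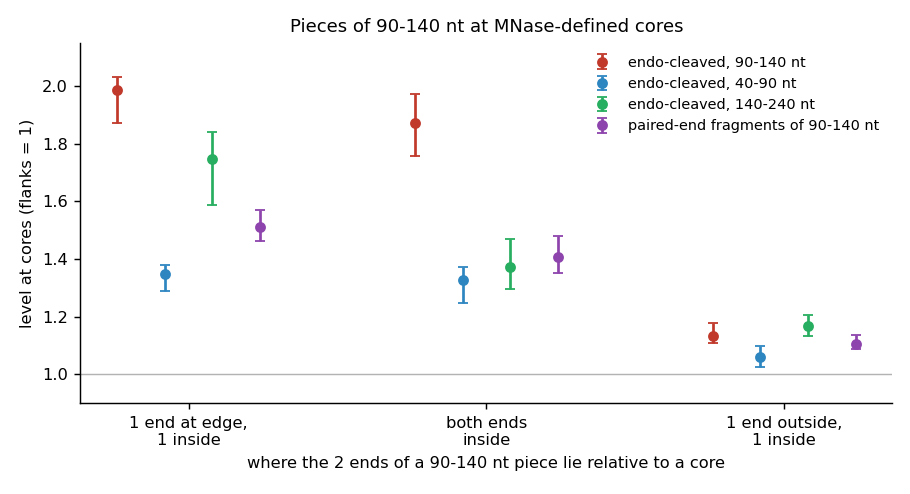
Level of pieces of 90 to 140 nt at MNase-defined cores (y axis, mean at shifted places set to 1) by where their ends lie (x axis), for 3 single-end libraries and for fragments of the paired-end library; points are values over all chromosomes and bars run from the lowest to the highest chromosome, not an error between preparations. In the 90-140 nt library pieces with 1 end at an edge had 1.99 and those with both ends inside 1.87, while pieces with 1 end outside had 1.13.

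Without choosing cores, ends of the 90-140 nt library were paired with ends of the MNase library directly. On the same strand an offset is positive where the 90-140 nt end lies inward, downstream of the MNase end. With every tag counted the highest pair number was at an offset of 1 nt, with a pair level of 2.02 relative to offsets of 400 to 500 nt, but the chromosomes ran from 1.53 to 4.54 and chromosome I held the highest. With each position counted once the highest lay at 4 nt on all 6 chromosomes, with a level of 1.40 (1.35 to 1.44). Without the 15 windows of 1 kb that exceeded 5 times the median of either library, an alternative chosen after seeing the data, it also lay at 4 nt on all 6 chromosomes, with 1.56 (1.52 to 1.63). Those windows held 0.140% of the MNase tags and 0.106% of the 90-140 nt tags. With each position counted once further crests lay at 14, 24, 34, 44, 55 and 64 nt inward, with levels of 1.27, 1.22, 1.22, 1.19, 1.15 and 1.12, and at -7, -17, -27 and -38 nt outward, with 1.30, 1.22, 1.16 and 1.13.

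The inward and outward sides of an MNase end differed in 90-140 nt ends, in a direction that depended on the distance. With each position counted once the pair level was 1.15 at 7 nt inward and 1.30 at 7 nt outward, and 1.08 and 1.19 at 10 nt. The order was reversed at 4 nt (1.40 inward and 1.21 outward), 14 nt (1.27 and 1.11) and 24 nt (1.22 and 1.06). Inward crests lay at 4, 14 and 24 nt, and outward crests at -7, -17 and -27 nt. Single distances near the MNase end therefore set crests against other parts of the ladder. They do not show which side held more ends. Farther out the mean pair level was 1.11 from 50 to 60 nt inward and 1.06 from 50 to 60 nt outward. With every tag counted it was 1.14 and 1.07. In the 40-90 nt library, with every tag counted, it was 1.10 and 1.00, and in the 140-240 nt library 1.06 and 1.09, which is the opposite order.

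On opposite strands, pairs of 1 MNase end and 1 end of the 90-140 nt library were most frequent at a distance of 113 nt, with a pair level of 1.25. The chromosomes ran from 104 to 134 nt with every tag counted, and all had 113 nt with each position counted once. Over 90 to 140 nt the mean pair level was 1.14 (1.12 to 1.18). The crests up to 144 nt lay at 72, 82, 93, 103, 113, 124, 134 and 144 nt, and the fit gave a period of 10.20 nt and an amplitude of 5.27%. These crests are from 3 to 4 nt longer than those of the 90-140 nt library with itself, from 69 nt on. The lengthening has the size and direction of the 4-nt offset on the same strand, which lies between the same ends and is no separate measurement. In the 40-90 nt library the highest cross pair number lay at 103 nt (103 to 104) and in the 140-240 nt library between 154 and 156 nt on every chromosome.

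**Figure D4:**
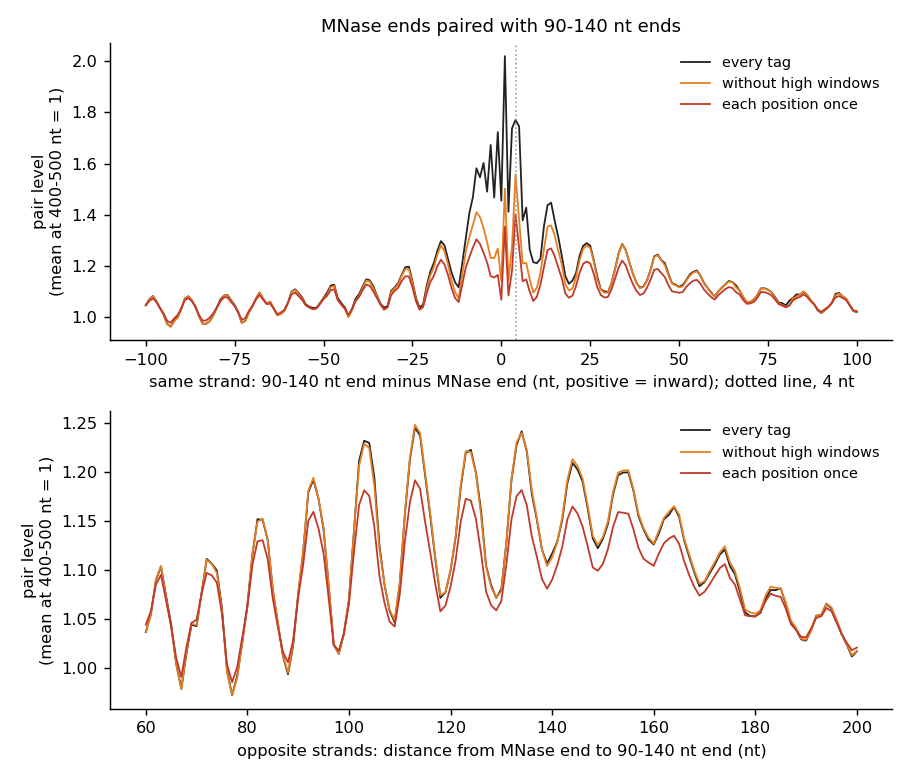
Pair level of MNase ends with 90-140 nt ends (y axes, mean at 400 to 500 nt set to 1) against the same-strand offset in nt (above, dotted line at 4 nt) and the opposite-strand distance in nt (below), with every tag counted, without high windows, and with each position counted once. The spike at 1 nt is the highest point only with every tag counted, where the level at 4 nt is 1.77, and 4 nt is the highest in the other lines; crests about a helical turn apart, from 14 nt inward and from -17 nt outward, are in all 3.

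Along the genome the 2 libraries were compared in windows of 1 kb, each library scaled to its own median, which was 303 ends in the 90-140 nt library and 76 in the MNase library. Spearman's rho across 98936 windows was 0.592 (0.568 to 0.615), a description of windows that share a genome and are not independent. The MNase library was closer to the 140-240 nt library, with rho 0.685 (0.590 to 0.705), and less close to the 40-90 nt library, with 0.112 (0.0558 to 0.189). The 90-140 nt library had 0.860 (0.794 to 0.897) with the 80-230 nt paired-end library, 0.761 (0.653 to 0.795) with the 140-240 nt library and 0.718 (0.613 to 0.770) with the 40-90 nt library.

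Windows in which the libraries disagreed 2-fold or more were a minority in both directions. Of 96472 windows with a mean scaled level of at least 0.2, the 90-140 nt level was at least 2 times the MNase level in 6153, which is 6.38%, and the MNase level was at least 2 times the 90-140 nt level in 2947, which is 3.05%. The middle 90% of the windows had log2 ratios of 90-140 nt to MNase from -0.90 to 1.11, with a median of -0.10. Many windows lay near the threshold. The 90-140 nt level was 1.8 to 2.0 times the MNase level in 2433 windows and 2.0 to 2.2 times in 1668. The MNase level was 1.8 to 2.0 times the 90-140 nt level in 3068 windows and 2.0 to 2.2 times in 1573. The 95% exact binomial interval of the ratio, which covers counting error only and treats tags as independent, lay wholly past 2-fold in 1237 of the 6153 windows (20.1%) and in 514 of the 2947 (17.4%). The count of MNase-higher windows depended on the scaling and on repeated tags. It was 1289 with each library scaled by its total and 1594 with each position counted once, against 8519 and 4854 windows with the 90-140 nt level higher. Of the disagreeing windows, the 90-140 nt level was the higher one in 67.6% with median scaling and in 86.9% with scaling by totals, which moves the median log2 ratio to 0.04.

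In both classes of window it was the MNase level that stood away from its median. In the windows with the 90-140 nt level higher, the median MNase level was 0.395 (quartiles 0.303 and 0.487) and the median 90-140 nt level 1.02 (0.828 and 1.17). In the windows with the MNase level higher these were 2.24 (1.68 and 2.64) and 1.02 (0.761 and 1.19). The classes were chosen on these values, which are a description, and a cut on a ratio is set more by the library with the wider spread. Over 1-kb windows the middle 90% held 21 to 153 MNase ends around a median of 76. In the 90-140 nt library they held 110 to 405 ends around a median of 303, a narrower spread for its median. The other libraries were not used to choose the classes. In the first class the 40-90 nt library had a median level of 1.45, the 140-240 nt library 0.866 and the paired-end library 1.06. In the second class they had 0.832, 1.12 and 1.11. In the windows within 2-fold all 3 lay between 1.00 and 1.02. The 40-90 nt library was thus higher in the first class and lower in the second, and the 140-240 nt library showed the smaller opposite difference. This describes the chosen classes and not the genome as a whole. Across all 98936 windows the rho of the MNase and 40-90 nt libraries was 0.112, and it was positive on every chromosome. In both classes the highest pair number of the 90-140 nt library stayed at 100 nt, with an amplitude of 17.0% where its level was the higher one and 15.7% where the MNase level was, against 15.47% in the windows within 2-fold.

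**Figure D5:**
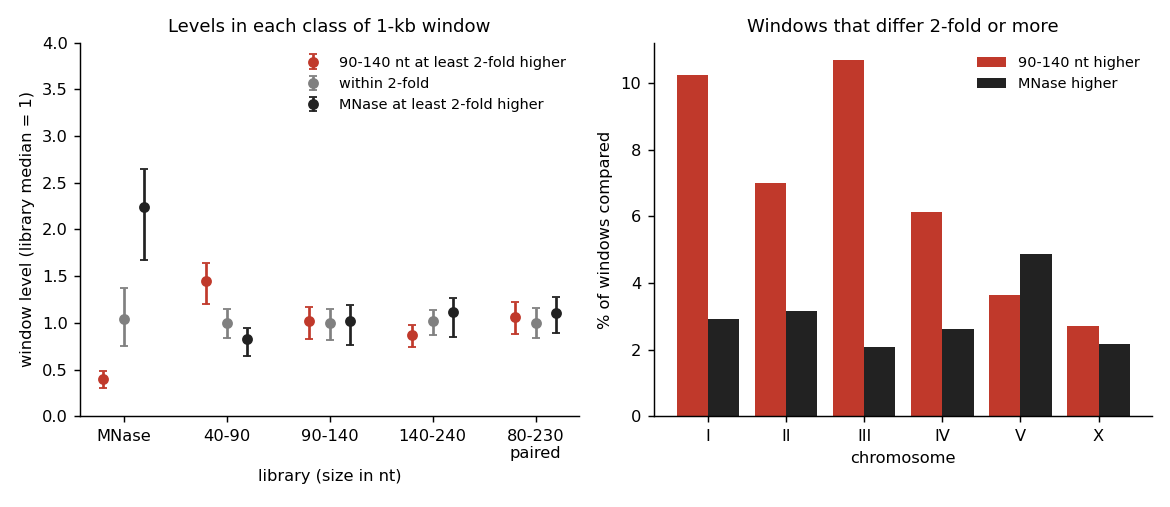
Left, level (y axis, library median set to 1) of 5 libraries (x axis) in 1-kb windows where the 90-140 nt level was at least 2-fold above the MNase level, within 2-fold of it, or at least 2-fold below it; points are medians and bars run between the quartiles. Right, percent of the windows compared (y axis) that differed in each direction on each chromosome (x axis). The MNase median runs from 0.395 to 2.24 over the classes while the 90-140 nt median stays between 1.00 and 1.02. The classes were chosen on the ratio of these levels, and MNase levels spread more widely over all windows.

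The chromosomes differed in both shares. The share of windows with the 90-140 nt level higher was highest on chromosomes III (10.7%) and I (10.2%), lower on II (6.99%) and IV (6.13%), and lowest on V (3.64%) and X (2.71%). The share with the MNase level higher was 4.88% on V and between 2.08% and 3.16% on the others. The median MNase level was 0.855 on chromosomes I and III and 1.14 on V and X. The median 90-140 nt level was between 0.960 and 1.06 on all 6. With each autosome cut into 3 equal parts, a division known from earlier results of these data, the 90-140 nt level was the higher one in 9.01% of 26780 windows in the central parts and in 6.24% of 52385 in the outer parts. The MNase level was the higher one in 1.08% and 4.36%. The right part of chromosome V had the highest share of MNase-higher windows among the parts, 8.66%. On the X chromosome the share with the 90-140 nt level higher was between 2.60% and 2.89% in all 3 parts, and the share with the MNase level higher was 1.44% in the central part, 2.97% in the left and 2.08% in the right.

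Windows with the 90-140 nt level higher often lay side by side, while most of those with the MNase level higher stood alone. The shares to be had from the number of windows alone were not computed. Of the 6153 windows with the 90-140 nt level higher, 2530 (41.1%) lay in 618 runs of at least 3 neighbors, and 2229 (36.2%) stood alone. Of the 2947 with the MNase level higher, 635 (21.5%) lay in 157 such runs and 1704 (57.8%) stood alone. The longest runs of the first kind were 14 windows at 10546001 to 10560000 on chromosome II, with a mean level of 1.21 in the 90-140 nt and 0.390 in the MNase library, and 14 windows at 6222001 to 6236000 on chromosome V, with 1.16 and 0.411. The next were at 7539001 to 7551000 on chromosome I, 11628001 to 11640000 on II and 7470001 to 7481000 on I, with ratios of 2.79, 3.02 and 3.20. In these 5 runs the 40-90 nt level was between 1.59 and 1.81. The longest runs of the second kind held 9 windows each and began at 11977001 on chromosome IV, 2783001 and 20296001 on V and 1549001 on X, followed by 8 windows from 4063001 on chromosome I. In them the MNase level was between 1.60 and 3.43 and the 90-140 nt level between 0.618 and 1.49, with MNase from 2.22 to 2.62 times higher.

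The most extreme single windows were taken among those with a mean level of at least 0.5 and at least 20 tags in both libraries, and differed from 4.80-fold to 5.10-fold with the 90-140 nt level higher and from 3.42-fold to 4.94-fold with the MNase level higher. The window at 10178001 to 10179000 on chromosome I held 407 ends of the 90-140 nt library and 20 of the MNase library, a ratio of scaled levels of 5.10 (95% exact interval 3.26 to 8.45). The next 4 lay at 7090001, 9665001 and 6092001 on chromosome I and at 8884001 on II, with ratios from 4.80 to 5.04. None of the 5 rested on a heavily repeated position, since no position held more than 7 tags of the 90-140 nt library or more than 1 of the MNase library. Each held only 20 or 21 MNase tags, at or next to the floor of 20. Windows with fewer were left out, so the size of these ratios depends on that floor. The 40-90 nt level was between 1.68 and 2.03 in all 5. In the other direction the window at 7079001 to 7080000 on chromosome X had an MNase level 4.94 times the 90-140 nt level (3.67 to 6.66), from 104 MNase and 84 90-140 nt ends. There 53 of the 104 MNase tags lay at 1 position. The window at 6670001 to 6671000 on chromosome II followed with 3.99 (3.09 to 5.14), from 127 ends of each library, with at most 8 at 1 position. Those at 6398001 and 17425001 on V and at 1763001 on X had from 3.42 to 3.85, with at most 6 MNase tags at 1 position. The genes and the sequence of these windows were not analysed here, since that needs an annotated genome in the numbering of the lists.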

How the data were processed

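The data are single-end libraries of fer-1(b232) oocytes, 1 per condition. The authors size-selected, blunted and amplified the DNA and mapped the reads, with Bowtie 0.12.7 per the submitters' processing notes. The genome build, the rule for reads with several matches and the handling of PCR copies are not given in the sources used here. The deposited lists give whole-number tag counts per position and strand, not normalized. Their display score and nominal extension were not used. In the paired-end list the count belongs to a fragment.

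Tags were placed at their 5′ ends on 6 nuclear chromosomes. Pair counts, sinusoid fits, core calls and 1-kb windows were computed as the report defines them, and the functions were tested on simulated data. The libraries, regions and comparisons were chosen with earlier results of these data known. Named windows were the 5 highest and 5 lowest ratios, named runs the 5 longest each way, and named cores the 5 strongest, at most 1 per chromosome. Alternatives counted each position once, thinned the 90-140 nt library to 7892011 tags, left out high windows, or changed distances, core rules, scaling and window size. Cores called from MNase positions counted once with at least 3 at both edges, and cross-library pairs without high windows, were alternatives chosen after seeing the data. Blunting trims 3′ overhangs and leaves 5′ ends in place. Other paired-end lists were not used. Software was Numba 0.67.0, NumPy 2.4.6 and pandas 2.3.3 under Python 3.11.15, with SciPy 1.17.1 for intervals and rho and Matplotlib 3.10.9 for plots.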

Additional observations from a re-analysis of the deposited data

How the results depend on the processing

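Of 70 alternative values, 48 stayed within the chromosome range of the reported value, or within 1.5 times of a reported count, 22 moved and none changed direction. No paired analysis was possible because each condition has 1 library. With each position counted once, the mean pair level of the 90-140 nt library was 1.11 from 90 to 140 nt and 1.07 over the next 15 nt, its amplitude 11.3%, the MNase level over those 15 nt 1.51, the MNase amplitude 1.61%, the cross-library level 1.40 and the number of MNase-higher windows 1594. Smoothing over 11 nt put the highest pair number of the 90-140 nt library at 115 nt. Distances of 60 to 140 nt gave periods of 10.32 nt (90-140 nt) and 10.78 nt (MNase) and amplitudes of 21.5% and 2.44%. With at least 6 tags at both edges, 2378 cores remained, and the edge level was 1.74, the partner zone 1.46 and the edge pairs 2.34. Cores called with each position counted once and at least 3 at both edges, chosen after seeing the data, numbered 19292 and gave 1.45, 1.30 and 1.72. With at least 4 such positions there were only 1570 cores. The rank correlation of window counts (Spearman's) was 0.470 in 10-kb windows, 0.546 when windows below 0.2 or above 5 times the median of either library were dropped and 0.561 with the 90-140 nt library thinned. Scaling by totals gave 1289 MNase-higher windows. Of the 2947 MNase-higher windows, 51.2% passed with each position counted once, as did 76.9% of the 6153 others. The cause of these shifts was not tested. The MNase depth limits core calls and window ratios.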
